A study of Mus musculus with 2 samples.

Results

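The 10 genes described here encode proteins of the extracellular matrix or proteins that act on it, and were chosen by name: Fn1, Col1a1, Col1a2, Col3a1, Col4a1, Col4a2, Col5a1, Sparc, Lamb1 and Serpine2. All 10 were found by the mouse symbol of their Ensembl identifier among the 27321 genes listed in either short-read gene table, and all 10 also had isoforms in the long-read transcript table. Mouse muscle stem cells were taken from Pax7creERT2;R26-eYFPfl/fl animals on a C57BL6 background, which had received tamoxifen on 5 days from 3 months of age. Cre is driven by the Pax7 gene in these animals, so YFP labels cells of the Pax7 lineage, and cells were sorted on YFP. Cells called quiescent came from muscle that was not injured. Cells called activated were taken 72 hours after an injection of 1.2 percent barium chloride into the lower hindlimb. Both entered 1 droplet capture, and the labels do not say which barcode came from which muscle, nor how many animals were used.

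After reverse transcription the droplets were divided into a 10 percent library, read by Illumina and by nanopore, and a 90 percent library, read by Illumina alone. A unique molecular identifier (UMI) stands for 1 captured transcript, and levels are given in CPM, the UMIs of a gene per 1000000 UMIs of the same set of barcodes. Barcodes of 3000 to 15000 UMIs with 0 UMIs of the cell cycle genes Rrm2, Top2a and Cdk1 are called shallow, and barcodes of at least 20000 UMIs are called deep. The 10 percent table held 157 shallow and 79 deep barcodes among 1991 listed, with a median of 6729 and 65499 UMIs, and the 90 percent table held 1243 and 606 among 3001, with a median of 4680 and 47106. As a check of the labels, all 7 myogenic markers (Pax7, Myf5, Myod1, Myog, Des, Cdh15 and Vcam1) had UMIs in both sets. The 3 genes Calcr, Spry1 and Chrdl2, known from quiescent stem cells, were 50.6-fold, 27.7-fold and 176-fold higher in the shallow set of both libraries summed. They belong to a list of 9 quiescence markers, with Heyl, Notch3, Hes1, Cd34, Sdc4 and Pax7. The whole list differed less, at a sum of 1417 CPM in shallow and 146 in deep barcodes, with barcodes of both tables counted once. All 9 had UMIs in both sets. The sets differ in depth and in the 3 cycle genes by construction. There was 1 capture and no replicate of either set, so no test was made, and every interval below is a 95% interval that covers counting error only.

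The extracellular matrix around a muscle fibre has a basement membrane, a sheet of type IV collagen and laminin that lies between the fibre and the interstitium, and muscle stem cells sit beneath it. Outside it lie fibrils of type I, III and V collagen with glycoproteins such as fibronectin. Stem cells both contact these proteins through integrins and syndecans and make some of them, and the matrix of the niche is known to change in regeneration.

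Fibronectin transcripts differ by cassette exons, and the most counted Fn1 isoform of these data starts within one of them, so that exon is shown first. It is the EDA exon, exon 33 of the reference transcript Fn1-201, 270 bases at chr1:71603660-71603929 on the minus strand of GRCm38. The sequence is from the Gencode reference transcript, and the capitals mark the part that the most counted isoform holds.
Fn1 EDA exon: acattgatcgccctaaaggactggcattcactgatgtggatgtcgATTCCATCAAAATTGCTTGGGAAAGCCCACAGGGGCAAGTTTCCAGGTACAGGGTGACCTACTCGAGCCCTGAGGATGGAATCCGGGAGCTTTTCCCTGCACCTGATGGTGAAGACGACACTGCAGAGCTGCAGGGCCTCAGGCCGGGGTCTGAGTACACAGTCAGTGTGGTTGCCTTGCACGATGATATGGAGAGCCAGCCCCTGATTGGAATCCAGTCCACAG
A second variable region, V, lies in exon 40, whose 5′ start differs among the reference transcripts. The first 75 bases of its longest form, at chr1:71597673-71597747 on the same strand, are present in 3 of 7 of them and are shown for the account of the isoforms.
Fn1 V stretch: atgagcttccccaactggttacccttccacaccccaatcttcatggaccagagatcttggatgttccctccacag

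Col4a1 and Col4a2, the members with the largest differences between the sets, stand head to head on chromosome 8 and start in opposite directions, with first exons that overlap by 22 bases in the annotation. Their promoter windows, 250 bases before to 50 after the start in RefSeq on GRCm38.p6, share 78 bases. Windows were found for 8 of the 10 members, all but Fn1 and Col1a1. Capitals mark GGGCGG and CCAAT on either strand.
Col4a1 promoter, chr8:11312777-11313076, minus strand: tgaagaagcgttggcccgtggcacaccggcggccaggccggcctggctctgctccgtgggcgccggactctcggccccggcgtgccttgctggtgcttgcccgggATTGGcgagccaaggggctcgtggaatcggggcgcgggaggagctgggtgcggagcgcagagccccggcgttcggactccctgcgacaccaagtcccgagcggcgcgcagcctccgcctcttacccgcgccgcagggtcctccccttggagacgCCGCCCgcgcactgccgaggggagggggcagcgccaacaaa
Col4a2 promoter, chr8:11312555-11312854, plus strand: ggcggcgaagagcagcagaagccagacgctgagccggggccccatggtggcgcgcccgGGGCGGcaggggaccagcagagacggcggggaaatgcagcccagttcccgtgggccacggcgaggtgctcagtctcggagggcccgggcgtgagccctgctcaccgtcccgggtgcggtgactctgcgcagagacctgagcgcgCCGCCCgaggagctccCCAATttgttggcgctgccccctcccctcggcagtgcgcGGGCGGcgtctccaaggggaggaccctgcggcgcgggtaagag
The Col4a1 window held GGGCGG 1 time and CCAAT 1 time, and the Col4a2 window held them 3 times and 1 time. Among all 32851 RefSeq windows of 300 bases, 35.7% held GGGCGG and 37.4% held CCAAT. Neither window held TATAAA, which 13.6% of all windows held, nor CANNTG, which 72.3% held, nor TGANTCA, which 7.81% held. A match of letters is a description of the window and no more.

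The tables share cells, which bears on every value below. They listed 634 barcodes in common, and 324 barcodes had at least 1000 UMIs in both, out of 330 such barcodes in the 10 percent table and 2420 in the 90 percent table. The 2 profiles of a shared barcode had a median correlation of 0.929 across genes (genes are not replicates), against 0.704 with the next barcode of the list, and the 90 percent table held a median of 0.821 UMIs for each of the 10 percent table. All 157 shallow and all 79 deep barcodes of the 10 percent table were shared in this way. The 2 disjoint sets of barcodes are therefore the 10 percent library and the 90 percent library without the shared barcodes, which left 1077 shallow and 507 deep barcodes in the latter. Values are given for these 2 sets side by side, and a fold is that of both whole tables summed unless another set is named. Because the summed tables hold shared barcodes 2 times, each fold is also given with every barcode counted once where the call or the size changes by more than 1.5 times.

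Of the 10 members, 2 were at least 2-fold higher in deep barcodes, Col1a2 and Lamb1, and 6 were at least 2-fold higher in shallow barcodes, Col3a1, Col4a1, Col4a2, Col5a1, Sparc and Serpine2. Among all 12923 genes with at least 50 UMIs, 30.4% were at least 2-fold higher in deep and 17.4% at least 2-fold higher in shallow barcodes. The members, chosen with earlier results of these data known, thus had a larger share higher in shallow barcodes than genes at large. With 10 members, the 2 higher in deep barcodes are not read as fewer than among genes at large. In the 10 percent library alone 4 members were higher in deep and 6 in shallow barcodes, against 32.5% and 14.2% of 7059 genes. Over both tables the members' median log2 of the deep over the shallow level was -1.72, whereas that of all genes was 0.30. A member with no change relative to genes at large would thus stand slightly above 1-fold. Scaling by the median of ratios moved the median of all genes to 0.01 and the share of called genes that were higher in deep barcodes from 63.6% to 51.3%. Under that scaling 2 members were higher in deep and 7 in shallow barcodes, with Col1a1 added, as also with each barcode counted once and in the 90 percent library without shared barcodes. Counted as UMIs per barcode, with no correction for depth, the median log2 of all genes was 3.54, and Col3a1, Col5a1, Sparc and Serpine2 were higher in deep barcodes, at log2 0.24, 1.31, 1.71 and 1.33, whereas Col4a1 and Col4a2 were still lower there. Fewer cells of a type and fewer transcripts per cell cannot be told apart in such sums, for which the shares of barcodes below are given.

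**Figure D1:**
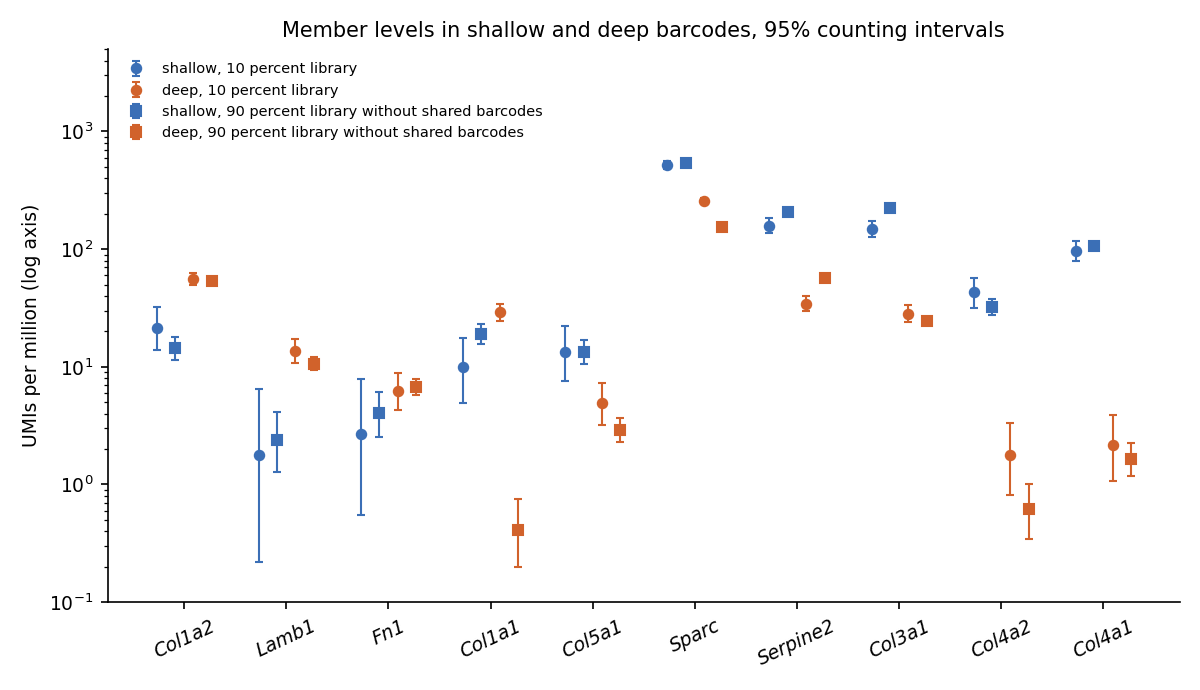
Level of each member in CPM (log axis) in shallow (blue) and deep (orange) barcodes of the 10 percent library (circles) and of the 90 percent library without shared barcodes (squares), with 95% counting intervals. Col4a1 stood at 96.9 and 106 in the shallow sets against 2.16 and 1.64 in the deep sets, and Col1a1 was the member whose direction differed between the libraries.

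Type IV collagen, the network-forming collagen of the basement membrane, was far higher in the shallow sets. Col4a1 (ENSMUSG00000031502, chr8:11198423-11312826, minus strand), which encodes the alpha 1 chain, had 96.9 CPM (79.5 to 117) in the shallow and 2.16 (1.08 to 3.86) in the deep barcodes of the 10 percent library. In the 90 percent library without shared barcodes the levels were 106 (97.7 to 115) and 1.64 (1.17 to 2.24). Both sets of barcodes thus gave a difference far beyond counting error, and over both tables the gene was 59.1-fold higher in shallow barcodes (45.5 to 78.0).

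Col4a2 (ENSMUSG00000031503, chr8:11312805-11449287, plus strand), the alpha 2 chain that joins alpha 1 in the same trimer, differed in the same direction. It had 43.1 CPM (31.8 to 57.1) in shallow and 1.76 (0.807 to 3.35) in deep barcodes of the 10 percent library, and 32.5 (27.8 to 37.6) against 0.617 (0.345 to 1.02) in the other set. It was 40.1-fold higher in shallow barcodes (27.6 to 60.2). The genes also met in the same barcodes: with each barcode counted once, 83 of 154 shallow barcodes with a Col4a2 UMI had a Col4a1 UMI, 53.9% (45.7 to 61.9), against 30.0% (27.3 to 32.8) of those without. Barcodes with Col4a2 were deeper, with a median of 5783.5 against 4590 UMIs, and the part of depth in this difference was not tested.

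Lamb1 (ENSMUSG00000002900, chr12:31265234-31329644, plus strand), the beta 1 chain of laminin and so a partner of type IV collagen in the basement membrane, went the other way. It had 1.79 CPM (0.217 to 6.48) in shallow and 13.7 (10.7 to 17.3) in deep barcodes of the 10 percent library, and 2.40 (1.28 to 4.10) against 10.6 (9.39 to 12.0) in the other set. The 18 shallow UMIs of both tables leave a wide interval, with a fold of 4.71 (2.94 to 8.03) in favour of deep barcodes. Even so, no interval of a deep set overlapped that of its shallow set.

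Type III collagen was higher in shallow barcodes of both libraries. Col3a1 (ENSMUSG00000026043, chr1:45311538-45349706, plus strand), whose chains form fibrils with type I collagen, stood at 148 CPM (126 to 172) in shallow and 28.2 (23.8 to 33.2) in deep barcodes of the 10 percent library. The 90 percent library without shared barcodes gave 225 (213 to 238) and 24.5 (22.6 to 26.6). Over both tables it was 7.98-fold higher in shallow barcodes (7.35 to 8.67).

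Col5a1 (ENSMUSG00000026837, chr2:27886425-28039514, plus strand), a chain of the type V collagen that starts and limits fibrils, was lower in deep barcodes as well. Its levels were 13.5 (7.53 to 22.2) and 4.90 (3.17 to 7.24) CPM in the 10 percent library, whose intervals lie just apart, and 13.5 (10.5 to 16.9) and 2.92 (2.28 to 3.68) in the other set. The fold was 3.82 (2.92 to 4.99) in favour of shallow barcodes. Col5a1 shared barcodes with Col3a1: of the 65 shallow barcodes with a Col5a1 UMI, 63.1% (50.2 to 74.7) had Col3a1, against 41.6% (38.7 to 44.5) of the others, at a median depth of 5877 and 4667 UMIs.

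The chains of type I collagen, Col1a1 and Col1a2, form 1 trimer, and their levels differed between the sets in opposite directions when both tables were summed, but not in the 10 percent library alone. Within shallow barcodes, each counted once, 8 of 73 with a Col1a1 UMI also had Col1a2, 11.0% (4.85 to 20.5), against 2.67% (1.82 to 3.77) of those without, at a median of 5385 and 4688 UMIs. Among deep barcodes these were 11 of 14, 78.6% (49.2 to 95.3), against 66.8% (62.8 to 70.6), at 38104 and 47532 UMIs. Col1a2 (ENSMUSG00000029661, chr6:4504814-4541544, plus strand), the alpha 2 chain, went from 21.5 CPM (13.8 to 32.0) in shallow to 55.9 (49.6 to 62.8) in deep barcodes of the 10 percent library, and from 14.4 (11.4 to 17.9) to 53.2 (50.3 to 56.1) in the other set. It was 3.16-fold higher in deep barcodes (2.65 to 3.80). Before depth was matched, 67.3% of deep and 3.14% of shallow barcodes had at least 1 UMI.

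Col1a1 (ENSMUSG00000001506, chr11:94936224-94953042, plus strand), the alpha 1 chain, had opposite directions in the 2 libraries. In the 10 percent library it stood at 9.87 CPM (4.93 to 17.7) in shallow and 29.2 (24.7 to 34.3) in deep barcodes, but 135 of its 149 deep UMIs, 90.6%, came from 1 barcode that also carried at least 2 of the fibroblast markers (Pdgfra, Dcn, Lum, Dpt, Ly6a, Pi16, Mfap5, Clec3b and Cd248). The 90 percent library without shared barcodes, which does not hold that barcode, gave 19.0 (15.5 to 23.0) in shallow and 0.411 (0.197 to 0.756) in deep barcodes, a 46.2-fold difference (24.1 to 99.2) from 10 deep UMIs. Over both tables the gene was 1.74-fold higher in shallow barcodes (1.40 to 2.15), and 3.23-fold (2.51 to 4.13) with each barcode counted once. Without the barcodes that had at least 2 fibroblast markers, the log2 of the deep over the shallow level was -1.82 in the 10 percent library and -3.80 over both tables, so the direction in the 10 percent library turned. That barcode also held 70 of the 285 deep Col1a2 UMIs and 300 of the 1319 deep Sparc UMIs of the 10 percent library. Without the fibroblast-marker barcodes Fn1 also passed the limit of 2-fold over both tables, at log2 1.03, and Col1a2 stood just under it in the 10 percent library alone, at log2 1.00.

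Few barcodes had several fibroblast markers, while single ones were more widely found. In the 90 percent library without shared barcodes, Dpt had 274 UMIs (50.5 CPM) in 172 of 1077 shallow barcodes and Ly6a had 418 UMIs (17.2 CPM) in 112 of 507 deep barcodes. Barcodes with at least 2 of the 9 numbered 1 shallow and 2 deep in the 10 percent table, and 8 shallow and 6 deep in the 90 percent table. With each barcode counted once the list summed to 87.3 CPM in shallow and 18.8 in deep barcodes, with Pdgfra, Pi16 and Clec3b at 0 in shallow and Pi16 at 0 in deep barcodes. Of the 5 tenocyte markers only Scx had UMIs in deep barcodes, and the list summed to 4.13 and 21.2. Endothelial markers summed to 12.5 and 5.91 and mural markers to 46.0 and 10.4. Schwann cell markers summed to 20.8 and 1.87, immune markers to 237 and 22.2 and myofibre markers to 82.6 and 68.0. The immediate-early genes Fos, Junb, Egr1, Atf3 and Ier2, which rise in cells on dissociation, summed to 2523 and 215. Except for the values without the fibroblast-marker barcodes, the part of these lists in the members' levels was not tested.

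Fibronectin (Fn1, ENSMUSG00000026193, chr1:71585520-71653200, minus strand), the glycoprotein that links integrins to collagen fibrils, was low throughout. It had 2.69 CPM (0.555 to 7.87) in shallow and 6.28 (4.29 to 8.86) in deep barcodes of the 10 percent library, intervals that overlap, and 4.06 (2.54 to 6.14) against 6.74 (5.75 to 7.86) in the other set. The fold of 1.77 (1.20 to 2.70) in favour of deep barcodes did not reach the limit of 2. Within the shallow set its 25 UMIs, each barcode counted once, lay in 13 of 1234 barcodes, and 5 of those 13, 38.5% (13.9 to 68.4), also had Col1a2, against 2.78% (1.94 to 3.87) of the barcodes without Fn1.

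Sparc (ENSMUSG00000018593, chr11:55394500-55423183, minus strand), a glycoprotein that binds collagen and takes part in its secretion and assembly, had the most UMIs of the members. Its levels were 519 (477 to 563) in shallow and 259 (245 to 273) in deep barcodes of the 10 percent library, and 537 (518 to 557) against 154 (149 to 159) in the other set. It was 2.88-fold higher in shallow barcodes over both tables (2.77 to 3.00). In the 10 percent library alone the fold was 2.005 (1.82 to 2.21), at the limit.

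Serpine2 (ENSMUSG00000026249, chr1:79794197-79861180, minus strand), an extracellular inhibitor of thrombin and other serine proteases, was the one protease inhibitor among the members. It had 159 CPM (136 to 184) in shallow and 34.5 (29.6 to 40.0) in deep barcodes of the 10 percent library, and 207 (195 to 220) against 56.9 (54.0 to 60.02) in the other set. It was 3.76-fold higher in shallow barcodes (3.51 to 4.03). The call was lost when deep barcodes were limited to those with 0 UMIs of Top2a and Cdk1, which gave a log2 of -0.81.

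**Figure D2:**
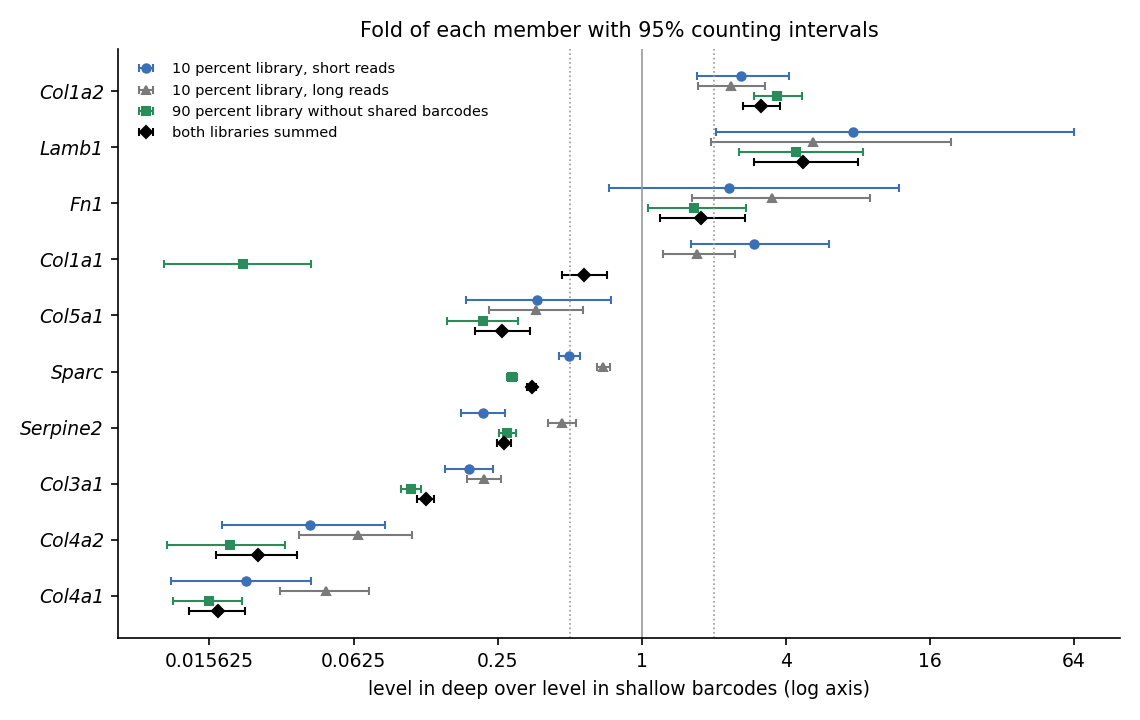
Level in deep over level in shallow barcodes for each member (log axis), with 95% counting intervals, in the short reads of the 10 percent library (blue), the long reads of the same barcodes (grey), the 90 percent library without shared barcodes (green) and both libraries summed (black); dotted lines mark 2-fold. Col4a1 lay at the far left at 59.1-fold lower over both tables, Lamb1 at the far right at 4.71-fold higher, and the Col1a1 points of the 2 libraries lay on opposite sides of 1.

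Long reads of the 10 percent library, which come from the same barcodes and cDNA as its short reads and are no replicate, gave the same direction as those short reads for all 10 members. Col4a1 was 20.8-fold (13.8 to 32.5), Col4a2 15.3-fold (9.08 to 27.0) and Col3a1 4.56-fold (3.86 to 5.39) higher in shallow barcodes by long reads, against 44.9, 24.4 and 5.24 by short reads. Sparc fell under the limit, at 1.45-fold (1.35 to 1.54), and Serpine2 stood at 2.15-fold (1.88 to 2.47). Fn1 was 3.50-fold higher in deep barcodes by long reads (1.62 to 8.98), from 7 shallow and 82 deep UMIs.

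A deep barcode has more chances to hold a UMI, so shares of barcodes were compared after each was thinned to 3000 UMIs. In the 90 percent library without shared barcodes Col4a1 was then found in 23.5% of shallow (21.0 to 26.1) and 0.20% of deep barcodes (0.00 to 1.09), and Col4a2 in 7.80% (6.27 to 9.57) and in 0 of 507, which allows a share of up to 0.72%. Col3a1 was found in 34.4% (31.6 to 37.4) against 7.69% (5.53 to 10.4) and Serpine2 in 23.6% (21.1 to 26.2) against 14.4% (11.5 to 17.8). Col1a2 was the reverse, in 2.41% (1.58 to 3.52) of shallow and 14.0% (11.1 to 17.3) of deep barcodes. Before thinning, the share with a Sparc UMI was 65.3% in shallow and 93.3% in deep barcodes, and after it 58.2% (55.2 to 61.2) and 31.6% (27.5 to 35.8). With each barcode counted once, 7 members had the larger share in shallow barcodes after thinning and 3 before it.

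Barcodes that carried at least 3 immune markers were set beside these shares as cells of another type. They numbered 5 in the 10 percent and 16 in the 90 percent table, of which 3 and 12 reached 3000 UMIs, with a median of 18403 and 9771 UMIs before thinning. After thinning, Fn1 and Col1a2 were each found in 1 of those 12 barcodes of the 90 percent table and the other 8 members in none of them. With so few such barcodes, neither the Fn1 shares, 0.46% (0.15 to 1.08) in shallow and 1.58% (0.68 to 3.09) in deep barcodes, nor those of Col1a2 can be placed above the shares in them. Whether immune cells make Fn1 or Col1a2 themselves was not tested, so these shares are not a background level for the 2 genes. Before thinning, the 16 immune-marker barcodes of the 90 percent table held 21 Sparc UMIs in 1 barcode, a level of 115 CPM (71.2 to 176), 5 Col1a2 UMIs in 1 barcode and 3 Fn1 UMIs in 2. The Sparc and Col1a2 UMIs and 2 of the Fn1 UMIs lay in the same barcode, the 1 deep one among the 16, with 57250 UMIs. Whether it held more than 1 cell was not tested. The 8 shallow ones had 0 UMIs of every member. Barcodes of under 300 UMIs in that table had 21 Sparc UMIs, a level of 434 CPM (268 to 663), 3 Serpine2 UMIs (61.9 CPM, 12.8 to 181) and 2 Col3a1 UMIs (41.3 CPM, with an upper bound of 149). The deep levels of these 3 genes, 154, 56.9 and 24.5 CPM in the 90 percent library without shared barcodes, are thus not above those of the barcodes under 300 UMIs, and the Sparc interval there includes its shallow level, 537 (518 to 557). Col1a2, Col4a1, Col5a1 and Lamb1 had 1 UMI each there, 20.6 CPM (0.52 to 115). Fn1, Col1a1 and Col4a2 had 0, with an upper bound of 76.2. These bounds exceed the shallow and deep levels of each of these members in that library, so neither level can be placed above them. In the 10 percent table barcodes of under 300 UMIs had 10 Sparc UMIs, 242 CPM (116 to 446). They also had 2 Col1a2 UMIs, 48.5 CPM (5.87 to 175), 1 Col4a1 UMI and none of the other members.

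Levels also moved with depth, and the course was not monotone for every member. The depth bins hold barcodes with and without UMIs of the cycle genes, so those between 3000 and 15000 UMIs are not the shallow set alone. At 7000 to 15000 UMIs, the 187 barcodes without cycle genes had 37.8 Col1a2 CPM and 764 Sparc CPM. The 56 with cycle genes had 78.5 and 274. With each barcode counted once, Col1a2 stood at 26.4 CPM in the 408 barcodes of 1000 to 3000 UMIs, which belong to neither set, 10.4 in barcodes of 3000 to 7000 UMIs, 48.3 in those of 7000 to 15000, 176 in the 46 barcodes of 15000 to 20000, which belong to neither set, and 65.3, 55.0 and 31.2 in the 3 bins above. Sparc went from 260, 446 and 638 to 746 and then 241, 162 and 132, and Fn1 from 0, 2.28 and 11.7 to 21.5 and then 7.38, 6.05 and 8.80. Col4a1 went from 49.0 (34.9 to 67.0) in barcodes of 1000 to 3000 UMIs to 104 and 82.0, and then to 36.6, 3.98, 1.39 and 0.50.

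In the 15000 to 20000 bin the high levels were found with and without cycle genes. The 20 barcodes with 0 UMIs of the 3 cycle genes had 158 Col1a2 CPM (119 to 206), and the 26 with at least 1 had 189 (151 to 234), and Sparc stood at 784 (693 to 884) and 718 (641 to 800). Dcn, a fibroblast marker, was at 0 in all 46, and the other fibroblast markers were not counted in this bin. Scx, a tenocyte marker, had 0 UMIs in the 20 barcodes without cycle genes. In the 26 with cycle genes it had 5 UMIs in 4 barcodes, 11.1 CPM (3.61 to 25.9). Whether fibroblasts or tenocytes were among the 46 barcodes was not tested. Myod1 stood at 164 (124 to 213) without and 264 (219 to 316) with cycle genes there. In barcodes of 7000 to 15000 UMIs it stood at 879 (836 to 925) without and 322 (278 to 371) with them. Among the 7 bins this was the one with the highest Col1a2, Fn1, Sparc and Col5a1 levels, the last at 27.8, from 46 barcodes.

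**Figure D3:**
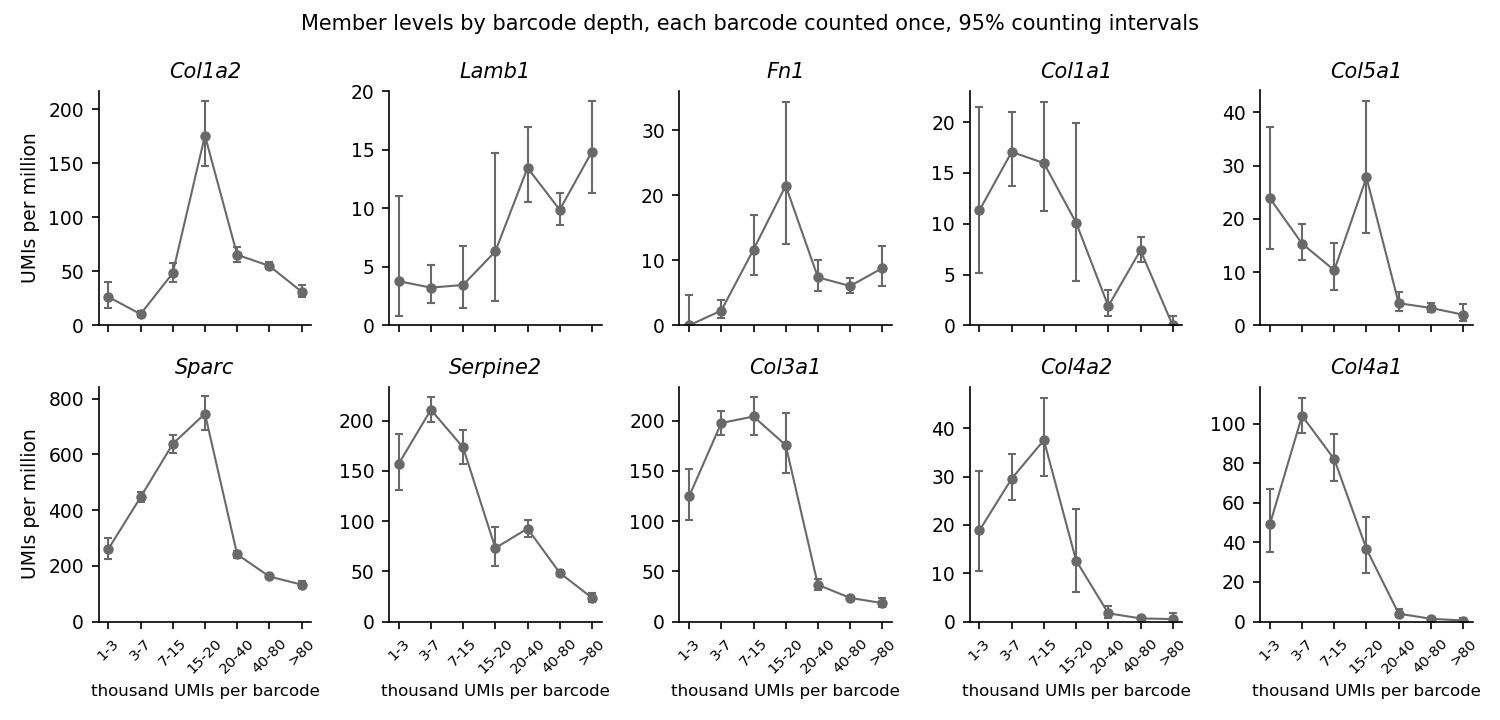
Level of each member in CPM against the depth of the barcodes (7 bins of UMIs per barcode), with 95% counting intervals. Each barcode is counted once, with or without UMIs of the cycle genes, and each panel has its own axis from 0. Col1a2, Sparc and Fn1 were highest at 15000 to 20000 UMIs, at 176, 746 and 21.5, whereas Col4a1 was highest at 3000 to 7000 UMIs, at 104.

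Shallow barcodes were divided by Myod1, the myogenic factor that marks early activation, according to whether a Myod1 UMI remained after thinning to 3000 UMIs. All 25 Fn1 UMIs lay in the 687 barcodes without one, at 6.78 CPM (4.39 to 10.0), and none in the 547 with one, which allows up to 1.29. In the 10 percent library the UMIs were 3 and 0, and in the other disjoint set 22 and 0. Col1a2 likewise stood at 23.9 (19.1 to 29.4) without and 4.91 (2.69 to 8.24) with Myod1. Basement membrane and type III collagen did not share this split: Col4a1 stood at 98.7 (88.8 to 109) and 112 (100 to 125), Col4a2 at 35.3 and 33.0, and Col3a1 at 221 (206 to 237) and 200 (184 to 217). Serpine2 had 201 and 196. Sparc differed in the 10 percent library, at 649 (586 to 717) without and 371 (321 to 427) with Myod1, whereas the 90 percent library without shared barcodes gave 538 (512 to 564) and 537 (508 to 568).

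The shallow Col1a2 UMIs lay in 39 of 1234 barcodes. Those 39 had 302 Myod1 CPM (239 to 375) against 1087 (1061 to 1113) in the others, 969 (854 to 1095) against 516 (498 to 534) of Sparc, 569 (482 to 668) against 150 (140 to 160) of Spp1 (osteopontin) and 71.6 (43.1 to 112) against 16.1 (13.1 to 19.6) of Pax7. Col4a1 was lower in them, at 33.9 (15.5 to 64.4) against 108 (99.6 to 116). Of the 39 barcodes, 28 had a Sparc UMI, 12 a Myod1 UMI, 12 an Spp1 UMI, 9 a Pax7 UMI and 7 a Col4a1 UMI. Except for Sparc, these sums thus come from a minority of them. The 126 Dcn UMIs of these 39 barcodes lay in 2 of them. Pdgfra was at 0 in them and in the 1195 others, so it does not set them apart. Scx stood at 22.6 (8.30 to 49.2) against 3.19 (1.95 to 4.92), from 3 of the 39. Timp1 stood at 192 (143 to 253) against 25.5 (21.7 to 29.8), from 15 of the 39. Of the 9 shallow barcodes with at least 2 fibroblast markers, 2 had Col1a2.

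Within the deep set Serpine2 varied with the cycle genes. With each barcode counted once, the 166 deep barcodes with 0 UMIs of Top2a and Cdk1 had 114 Serpine2 CPM (106 to 122) and the 420 with at least 1 had 33.8 (31.4 to 36.2). The 10 percent library gave 72.2 (58.2 to 88.7) and 22.1 (17.7 to 27.4), and the 90 percent library without shared barcodes 123 (114 to 133) and 36.2 (33.5 to 39.0), so both disjoint sets showed it. The same barcodes differed in Cdkn1a, a cell cycle inhibitor, at 666 and 375, and in Myog, the factor of terminal differentiation, at 172 and 48.3. Most other members differed less, with Col1a2 at 53.0 and 53.8, Col3a1 at 26.6 and 24.7 and Lamb1 at 12.0 and 10.9. Col1a1 had 1.42 and 6.66, but the barcode with 135 of its UMIs is among those with cycle genes. Fn1 was lower in the barcodes without the cycle genes, at 4.25 (2.87 to 6.07) against 7.42 (6.34 to 8.64), but not in both disjoint sets. The 10 percent library gave 6.35 (2.74 to 12.5) and 6.25 (4.01 to 9.30). The 90 percent library without shared barcodes gave 3.79 (2.38 to 5.74) and 7.67 (6.46 to 9.03). The barcodes without cycle genes were shallower, with a median of 40235.5 against 49954 UMIs. When deep barcodes were divided by Myog instead, into 444 with 0 UMIs and 74 with at least 3, Serpine2 stood at 49.9 (47.0 to 52.9) and 65.8 (57.8 to 74.5) and Col1a2 at 54.4 and 49.2.

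Genes with a pattern like that of each member were sought among 10511 genes over the 606 deep barcodes of the 90 percent table, as the Pearson correlation of log2 of the level plus 10. These barcodes come from 1 library, share its depth range and are no independent samples. The 79 deep barcodes of the 10 percent library are all listed in the 90 percent table too, so values are also given over the 507 barcodes without the shared ones. Serpine2 had the highest values, with Ak1, Ccng1 and Dcxr at r = 0.63, 0.60 and 0.55, at 0.64, 0.61 and 0.55 without shared barcodes, and at 0.46, 0.48 and 0.40 over the 79. Sparc came next with Anxa2, Cd9 and Anxa5 at 0.48, 0.44 and 0.43, at 0.46, 0.43 and 0.38 without shared barcodes, and at 0.30, 0.57 and 0.51 over the 79. For Col1a1, found in only 2.31% of these barcodes, Fstl1, Bgn and Gstm2 came first at 0.36, 0.34 and 0.33, but at 0.24, 0.13 and 0.21 without shared barcodes, and at 0.59, 0.56 and 0.48 over the 79. For Col3a1 the first gene was Heyl, at 0.33, 0.25 and 0.59 in that order. For Col4a1, found in only 5.12% of these barcodes, it was Meg3, at 0.38, 0.44 and 0.49, and for Col1a2 it was Capn6, at 0.33, 0.32 and 0.42. For Fn1, Lamb1, Col4a2 and Col5a1 no gene reached 0.3, and in counts this sparse weak correlations are no finding.

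The long-read table held 8297203 UMIs of the 10 percent library, and its members were read to very different extents. Each isoform was placed by whether its ends lay in the first and in the last exon of the longest coding reference transcript, within 100 bases. Over all genes 77.8% of long-read UMIs had both ends in these exons. Among the members this was 97.8% of 5983 UMIs for Sparc, 85.2% of 1188 for Serpine2, 73.4% of 948 for Col3a1, 55.3% of 553 for Col1a2 and 47.9% of 365 for Col1a1. It was 0 of 120 UMIs for Fn1, 0 of 366 for Col4a1, 0 of 159 for Col4a2, 0 of 152 for Col5a1 and 0 of 97 for Lamb1.

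Length went with these shares. Genes whose coding transcript had under 2000 bases had a median of 97.2% of UMIs with both ends (2344 genes), those of 2000 to 4000 bases 84.3% (3399 genes), those of 4000 to 6000 bases 37.3% (1550 genes) and longer ones 0% (990 genes). The transcripts of Sparc and Serpine2 have 2300 and 2210 bases, and those of Fn1, Col5a1, Col4a1 and Col4a2 from 6450 to 8406. Col1a1, Col1a2 and Col3a1, at 5348 to 5930 bases, all stood above the median of their class. Lamb1, at 5784 bases, had none with both ends, as did 509 of the 1550 genes of that class.

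**Figure D4:**
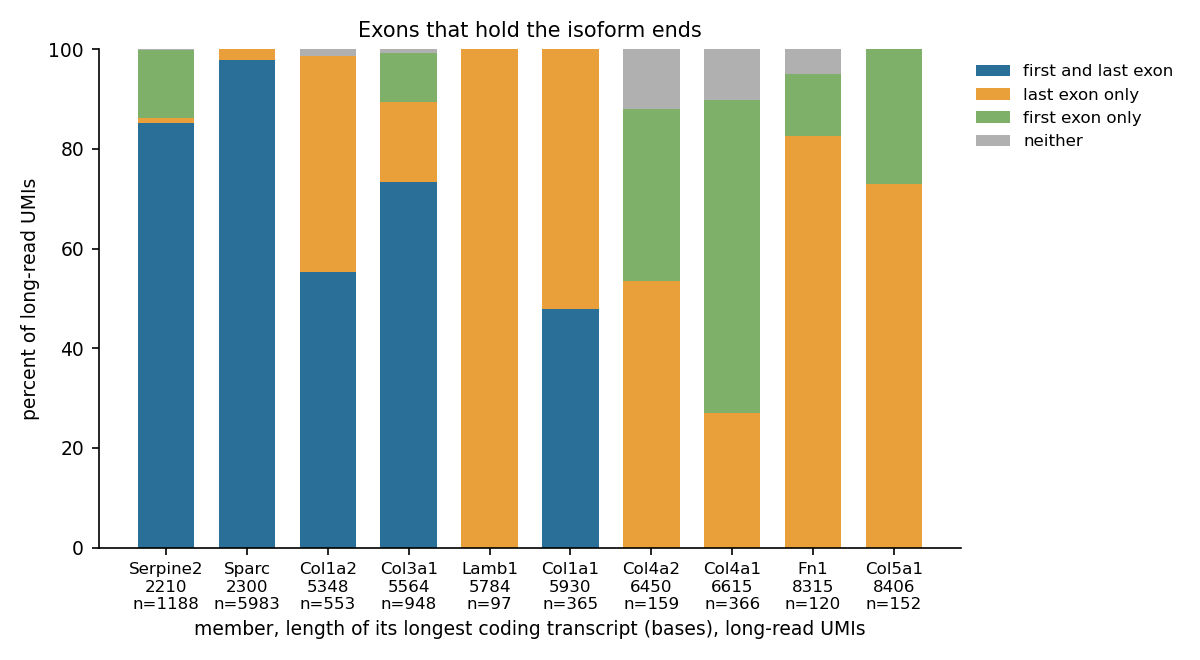
Percent of long-read UMIs of each member by the reference exons that hold the isoform ends, over all barcodes of the 10 percent library; members are ordered by the length of their longest coding transcript in bases, with the number of UMIs below. Sparc and Serpine2 had 97.8% and 85.2% of UMIs with both ends, Lamb1 reached the last exon only, and 62.8% of Col4a1 UMIs had the first exon only.

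Which end was missing differed between genes. All 97 Lamb1 UMIs ended in the last exon, exon 33, and started in exon 16 or exon 22. For Col4a1, 62.8% (57.7 to 67.8) started in the first exon and stopped early, and 27.0% (22.6 to 31.9) reached the last exon without the first. Its most counted isoform, chr8:11233834-11312749, ran from exon 1 to exon 22 of 52 and had 63 UMIs, and another, chr8:11199519-11217515, ran from exon 38 to the last exon and had 54. Col4a2 had 53.5% (45.4 to 61.4) at the last exon only and 34.6% (27.2 to 42.5) at the first only. No isoform of Col4a1, Col4a2, Col5a1, Lamb1 or Fn1 was therefore seen from end to end, and the splicing of the middle and an end cannot be joined for them.

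Fn1 had 4 isoforms and 120 UMIs, and none bore a reference name. The most counted, with 57 UMIs (5 shallow, 38 deep), spanned chr1:71585523-71603884 and started 45 bases inside the EDA exon shown above. The next, with 42 UMIs (0 shallow, 30 deep), spanned chr1:71585523-71602469 and started in exon 34, downstream of it. Neither covers more than 35.1% of the 8315 bases of Fn1-201, which has 46 exons. The 15 UMIs of chr1:71650784-71653172 began in exon 1 and ended in intron 2, and the 6 of chr1:71604114-71612511 ran from exon 26 to intron 32. No counted isoform covered the EDB exon, exon 25 at chr1:71613763-71614035, so its use was not seen either way.

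The exons of an isoform that starts inside a cassette exon come from the deposited long-read annotation. That annotation has no Fn1 entry with the names in the count table, but 1 of its 4 entries has ends within 1 base of the most counted isoform. This entry has 14 exons, of which the first is the 3′ part of the EDA exon, and a V exon of 467 bases, which includes the 75-base stretch shown above. Another entry of the annotation, not counted, holds the whole EDA exon and a V exon of 392 bases without that stretch. Of 7 full-length reference transcripts of Fn1, 4 have the EDA exon and 3 the V exon of 467 bases. The counted isoforms start inside the EDA exon or downstream of it, or end before it, so none of them could show it skipped, and its use cannot be compared between the sets.

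Isoform shares with intervals that did not overlap between shallow and deep barcodes were found for 6 of the isoforms with at least 5% of a member's UMIs in either set. The share of isoforms of all genes that meet the same criterion was not computed. The 6 are therefore described one by one and not read as many or few. In Serpine2 the most counted of the isoforms with ends at chr1:79794329-79858635, in exon 1 and exon 9, had 61.0% (55.6 to 66.2) of shallow and 75.1% (71.2 to 78.7) of deep UMIs. An isoform with the same 5′ end that stops in intron 4, chr1:79808919-79858635, had 8.38% (5.68 to 11.8) of shallow and 0.743% (0.203 to 1.89) of deep UMIs. All Serpine2 UMIs that had the first exon alone came to 19.1% (15.1 to 23.6) in shallow and 7.62% (5.52 to 10.2) in deep barcodes, whereas over all genes the same class was 10.1% and 6.40%. UMIs with the first exon alone were thus a larger share in shallow barcodes for Serpine2 and for all genes summed.

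For Sparc the reference isoform Sparc-201 had the same share in both sets, 57.9% (55.2 to 60.5) and 57.7% (55.9 to 59.4). Sparc-202, which also runs from the first to the last exon, had 20.1% (18.0 to 22.4) of shallow and 24.6% (23.1 to 26.2) of deep UMIs, and 1 of the isoforms without a reference name at chr11:55394511-55419867 had 12.4% (10.6 to 14.2) and 8.37% (7.42 to 9.40). In Col1a1 the isoform chr11:94936253-94951845 with both ends had 68.3% (51.9 to 81.9) of 41 shallow and 44.3% (37.8 to 50.9) of 235 deep UMIs. That difference was lost when shallow barcodes were limited to 5000 to 15000 UMIs, and most short-read Col1a1 UMIs of the deep set came from 1 barcode. The last, 1 of 7 Col3a1 isoforms with ends at chr1:45311631-45349018, had 2 of 342 shallow and 13 of 251 deep UMIs. When shares were taken among isoforms with a reference name alone, which leaves 3 for Sparc and 1 for Serpine2, 0 had intervals apart. These intervals treat each UMI as independent, although UMIs of 1 barcode share a cell.

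Over the same barcodes long reads gave 8297203 UMIs and short reads 6772259. In shallow barcodes these were 1382498 and 1114508, whereas in deep barcodes long reads gave fewer, 4628237 against 5099209. Per gene, the median ratio of long-read to short-read UMIs was 2.43 over 6193 genes with at least 50 short-read UMIs. Serpine2 had 3.02, Sparc 2.77, Col3a1 2.41, Col4a1 2.27, Col4a2 2.24 and Col1a1 2.13. Col1a2 stood lower at 1.68, the 26.6th percentile, and Lamb1 at 1.33, the 15.8th. Fn1 and Col5a1 had fewer than 50 short-read UMIs and were not placed.

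The other genes of the matrix were taken from 6 lists. In the order given below, these had 12, 10, 23, 24, 18 and 17 genes with at least 50 UMIs. Of all of these together, 19 were at least 2-fold higher in deep and 46 at least 2-fold higher in shallow barcodes. The shares of all genes, 30.4% and 17.4%, are to be set beside the count of each list. They are given as counts and medians, with no test. Among 12 other collagens with at least 50 UMIs, of 21 listed, 1 was higher in deep barcodes, Col13a1, a transmembrane collagen of the neuromuscular junction, at 9.45-fold (3.16 to 46.4) from 3 and 131 UMIs. Another 6 were higher in shallow barcodes, among them Col15a1, a collagen of the basement membrane zone, at 91.1-fold (197 and 10 UMIs), Col5a3 at 8.38-fold and Col6a1 at 7.50-fold. The median log2 of the deep over the shallow level was -1.19.

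Of 10 basement membrane genes measured, of 15 listed, 2 were higher in deep and 4 in shallow barcodes, with a median log2 of -0.68. The laminin chains did not move together. Lama2, the alpha chain of muscle laminin, was 4.81-fold, Lamb2 4.34-fold and Lamc1 3.13-fold higher in shallow barcodes, whereas Lama5 was 2.26-fold and Lamb3 9.84-fold (2.65 to 82.5) higher in deep barcodes like the member Lamb1. With 2 shallow UMIs, Lamb3 had a log2 of -0.32 in the 10 percent library alone. Among 23 other matrix and matricellular genes, of 31 listed, 3 were higher in deep and 11 in shallow barcodes (median -0.93). Spp1, a ligand of integrins and Cd44, was 3.22-fold and Fbln1 7.83-fold higher in deep barcodes, and Ccn1 and Ccn2, secreted targets of YAP signalling, were 4.31-fold and 41.1-fold higher in shallow barcodes.

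Of 24 genes that process collagen, 5 were higher in deep and 10 in shallow barcodes, so this list too leaned to shallow barcodes. Its median log2 of 0.02 was the nearest of the 6 lists to the 0.30 of all genes. Ppib, P4hb, Fkbp10 and P3h4, which modify or fold procollagen in the endoplasmic reticulum, were 2.25-fold, 2.06-fold, 2.58-fold and 3.68-fold higher in deep barcodes. Scaled by the median of ratios, Ppib and P4hb fell under the limit, at log2 0.88 and 0.75, and so did Lama5, at 0.88. Lox, the enzyme that cross-links collagen outside the cell, was 13.4-fold and P4ha1, a prolyl hydroxylase subunit, 3.21-fold higher in shallow barcodes. Of 18 proteases and inhibitors, 5 were higher in deep and 11 in shallow barcodes (median -1.74). Here Timp1 and Serpinf1 stood at 5.34-fold and 5.49-fold in favour of deep barcodes, against Timp3 at 5.54-fold, Adamts1 at 10.8-fold and Mmp2 at 19.2-fold in favour of shallow barcodes.

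Matrix receptors had 3 of 17 genes higher in deep and 4 higher in shallow barcodes, with a median log2 of -0.19. Sdc4, a syndecan that binds fibronectin and is known from quiescent stem cells, was 10.7-fold higher in shallow barcodes, whereas Sdc1 and Gpc1 were 4.31-fold and 4.47-fold higher in deep barcodes. Itga3, an integrin chain that binds laminin, was 19.5-fold higher in deep barcodes from 4 and 361 UMIs, and Itgav, whose integrins bind fibronectin, was 2.23-fold higher in shallow barcodes.

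**Figure D5:**
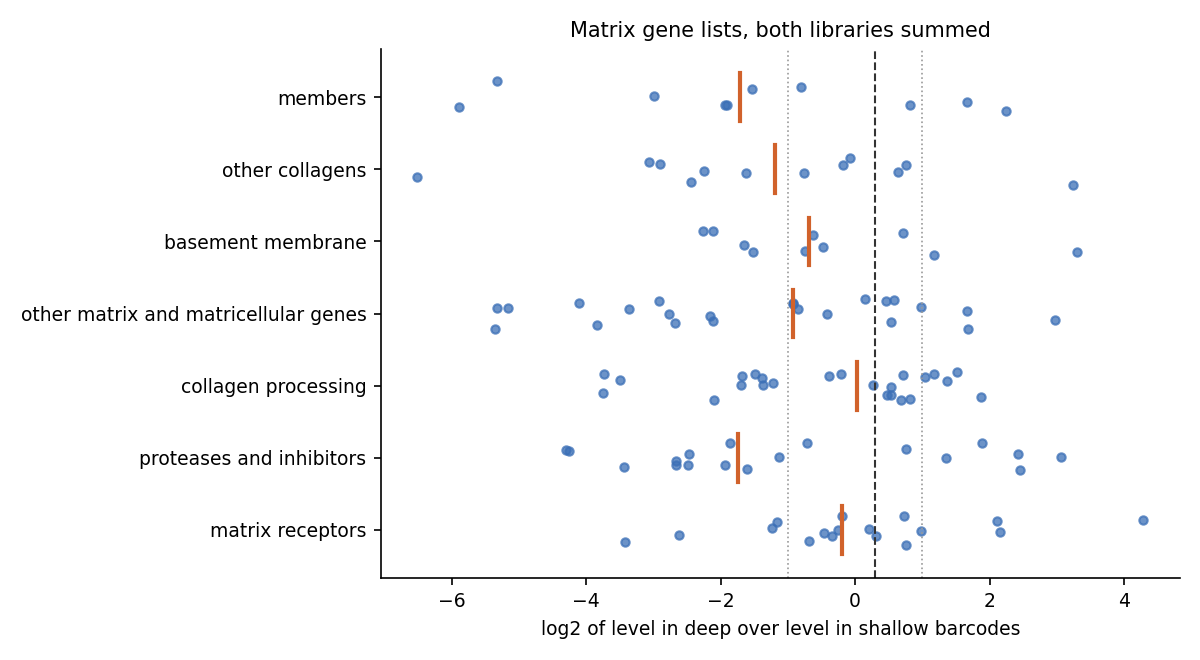
Log2 of the level in deep over the level in shallow barcodes, both libraries summed, for each gene (points) of the members and of 6 other matrix lists among genes with at least 50 UMIs; orange bars are list medians, the dashed line is the median of all 12923 genes (0.30) and dotted lines mark 2-fold. The members' median lay at -1.72 and that of collagen processing genes at 0.02, and all 7 medians lay below the dashed line.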

How the data were processed

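The submitters' processing notes name Cell Ranger 1.3, minimap2 2.17 and GRCm38.p6. The study's methods name scPipe for the short-read gene counts of these cells and FLAMES for the long reads. Which of Cell Ranger and scPipe made the deposited gene counts was not checked. The deposited files hold counts: UMIs per gene and barcode for each library's short reads, and UMIs per isoform and barcode for the long reads of the 10 percent library, as the authors made them, not normalized. No column of per-sample values was left unused. Members, gene lists and comparisons were chosen with earlier results of these data known.

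Counts were summed over the barcodes of a set and divided by their total (6772259 UMIs in the 10 percent table, 39044129 in the 90 percent table). Levels have exact Poisson intervals, folds exact conditional binomial intervals and shares Clopper-Pearson intervals, at 95%. The floor for a count of 0 is 3 UMIs where a level is concerned. No gene filter applied to members. Other genes needed 50 UMIs over both sets. A difference was called past 2-fold. All 10 members are named. Of each other list, examples come from the 4 genes with the most UMIs in each direction past that limit. Isoforms named have at least 5% of a member's UMIs in either set or the most UMIs of a member, and likeness is given where r reached 0.3 in both tables, which share the deep barcodes of the 10 percent library. No doublet caller was run and barcodes were not clustered. Marker barcodes had at least 3 immune or 2 fibroblast markers. Fold recovery and interval coverage were tested on simulated data with known folds. Software was Python 3.11.15, NumPy 2.4.6, SciPy 1.17.1, pandas 2.3.3 and Matplotlib 3.10.9. Alternatives covered each library alone, shared barcodes, scaling, depth limits, cycle genes, marker barcodes, fold limits, thinning and isoform names. Those that set shared barcodes apart, and those of the lists and of shares not thinned, were chosen after seeing the data.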

Additional observations from a re-analysis of the deposited data

Results flagged for a closer look

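Col1a1 moved in opposite directions in the 2 disjoint sets of barcodes. The log2 of its level in deep over that in shallow barcodes was 1.57 in the 10 percent library and -5.53 in the 90 percent library without shared barcodes. The difference was not tested, since each library is 1 sample. Of the 149 deep UMIs of the 10 percent library, 135 lay in 1 barcode with fibroblast markers, and without such barcodes the value in that library was -1.82.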

How the results depend on the processing

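No paired analysis was possible because there was 1 capture, the 2 libraries are aliquots of it and no result comes from a test. Of the members' log2 values under other settings, 112 moved by less than the main counting interval, 54 moved beyond it in the same direction or without a call, and 4 values of called members changed direction, under UMIs per barcode with no correction for depth: Col3a1 at 0.24, Col5a1 at 1.31, Sparc at 1.71 and Serpine2 at 1.33. Col1a1, at -0.80 not past the limit, also turned there, to 2.44, and in the 10 percent library alone, to 1.57. That setting left 2 of 10 members lower in deep barcodes, against 7, with 7 called higher in deep and 2 in shallow barcodes. The 10 percent library alone called 4 members higher in deep barcodes, against 2, since Col1a1 and Fn1 passed the limit there. A fold limit of 4 left 1 and 3 members, against 2 and 6. The other lists had 12 genes higher in deep and 25 in shallow barcodes in the 10 percent library alone, against 19 and 46, where fewer genes reached 50 UMIs, and 4 genes of the lists, of which only Lamb3 is described above, changed direction there: Lamb3 to -0.32, Mmp15 to -0.19, Mmp9 to -0.46 and Smoc2 to 1.51. Without thinning 3 members, against 7, had the larger share in shallow barcodes. Isoforms under reference names alone gave 0 with intervals apart, against 6. A UMI minimum of 10 raised the genes higher in shallow barcodes from 2248 to 3687. Counts were low for Fn1 and Lamb1 in shallow barcodes of the 10 percent library, with 3 and 2 UMIs, and for Col4a2 in its deep barcodes, with 9. The cause of these changes was not tested beyond what each setting leaves out.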
